A study of Mus musculus with 18 samples.

Results

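The genes described here are the ZBTB family other than *Zbtb24* in LPS-stimulated mouse splenic B cells. They are the 40 of 16545 genes in the expression table whose NCBI mouse gene ID maps to a symbol starting with Zbtb, with *Zbtb24* left out. The rule used gene names only and no measured value. One of the 40, *Zbtb8os*, is named for lying on the opposite strand of *Zbtb8a* and encodes archease, a cofactor of tRNA ligation, not a BTB zinc finger protein, so that 39 members belong to the family proper.

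The study sequenced RNA of splenic B cells isolated from control mice (Cre/+ Zbtb24 +/+ littermates by the study's methods) and of B-CKO mice (Cre/+ Zbtb24 loxp/loxp), in which a Cre expressed in B cells removes exon 2 of *Zbtb24*. By these methods both groups carry the Cre allele, on a C57BL/6 background. Cells were taken before LPS (0 h, day 0) and after 24 h and 48 h of LPS in culture (day 1 and day 2), with 3 numbered libraries for each genotype and time, 18 in all. None of the 18 came from cells cultured without LPS, so that LPS, culture and time after isolation cannot be told apart. By the methods each replicate of splenic B cells came from 1 mouse, so that p-values measure the spread between libraries of different mice in a group. At 0 h part of this spread was shared by same-numbered libraries of both genotypes, so that it is not a spread between mice alone. Age and sex of these mice, and whether a number marks the same mouse at each time, are not given in the sources used here.

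ZBTB proteins pair an N-terminal BTB domain, through which they dimerise and recruit corepressor complexes such as those of NCOR, BCOR and histone deacetylases, with C-terminal C2H2 zinc fingers that bind DNA. Most of those studied act as transcriptional repressors, and several steer lymphocyte fate, as ThPOK (*Zbtb7b*) does in CD4 T cells, PLZF (*Zbtb16*) in innate-like T cells and BCL6 in germinal centre B cells. LPS activates B cells through TLR4 and drives them to divide and to become antibody-secreting plasmablasts.

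Values are in FPKM, fragment numbers scaled for transcript length and library size, so that levels of different genes can be set side by side. Depth in fragments is not in the table, but steps between low values place the libraries at 0 h at 0.895 to 0.909 and those at 24 h and 48 h at 1.03 to 1.07 of their geometric mean. In control cells *Zbtb24*, the targeted gene, was at 45.4 ± 7.24, 17.6 ± 1.66 and 15.2 ± 1.85 FPKM (SD, n = 3) at 0 h, 24 h and 48 h, and in B-CKO cells at 12.5 ± 1.90, 10.9 ± 0.677 and 10.4 ± 1.07 FPKM. The 3 B-CKO libraries lay below the 3 control libraries at each time. B cell markers were high, with *Cd79a* at 2234, 2195 and 1790 FPKM and *Ms4a1* (CD20) at 623, 547 and 446 FPKM in control libraries at 0 h, whereas the sum over 8 T cell markers was 6.55 to 13.5. In such bulk samples fewer cells of a type and less RNA per cell cannot be told apart.

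The family was broadly expressed before LPS. At 0 h, 32 to 35 of the 39 family members exceeded 1 FPKM in each control library and 10 to 15 exceeded 10 FPKM. The highest control means at 0 h were those of *Zbtb10* (43.7 ± 30.2 FPKM), *Zbtb7a* (40.9 ± 8.53), *Zbtb18* (38.4 ± 7.33), *Zbtb22* (27.7 ± 2.47) and *Zbtb7b* (22.9 ± 8.97; SD, n = 3). The first 3 means did not differ beyond their spread. The 4 lowest members stayed under 1 FPKM in every group mean. *Zbtb7c* reached at most 0.01 FPKM in any library, *Zbtb46* 0.81, *Zbtb8b* 0.51 and *Zbtb16* 0.24.

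The order changed over time. *Zbtb32* ranked 25 of 40 by control mean at 0 h and 1 at 24 h and 48 h, while *Zbtb10* went from rank 1 to rank 35 and then 36. The summed FPKM of the 39 family members was 392 to 415 in control libraries at 0 h, 354 to 361 at 24 h and 377 to 411 at 48 h. Its share of all FPKM in a library was 0.0837% to 0.0892%, 0.0681% to 0.0699% and 0.0697% to 0.0780% at these times. By this share all control libraries at 48 h lay below those at 0 h, although the sums overlapped. *Zbtb32* alone made up 1.20% to 1.66% of this sum at 0 h, 29.6% to 31.8% at 24 h and 41.4% to 44.6% at 48 h. Without *Zbtb32*, the mean sum was 398 ± 11.1 FPKM at 0 h, 247 ± 1.92 at 24 h and 223 ± 4.74 at 48 h (SD, n = 3), with the libraries of the 3 times apart from each other.

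**Figure D1:**
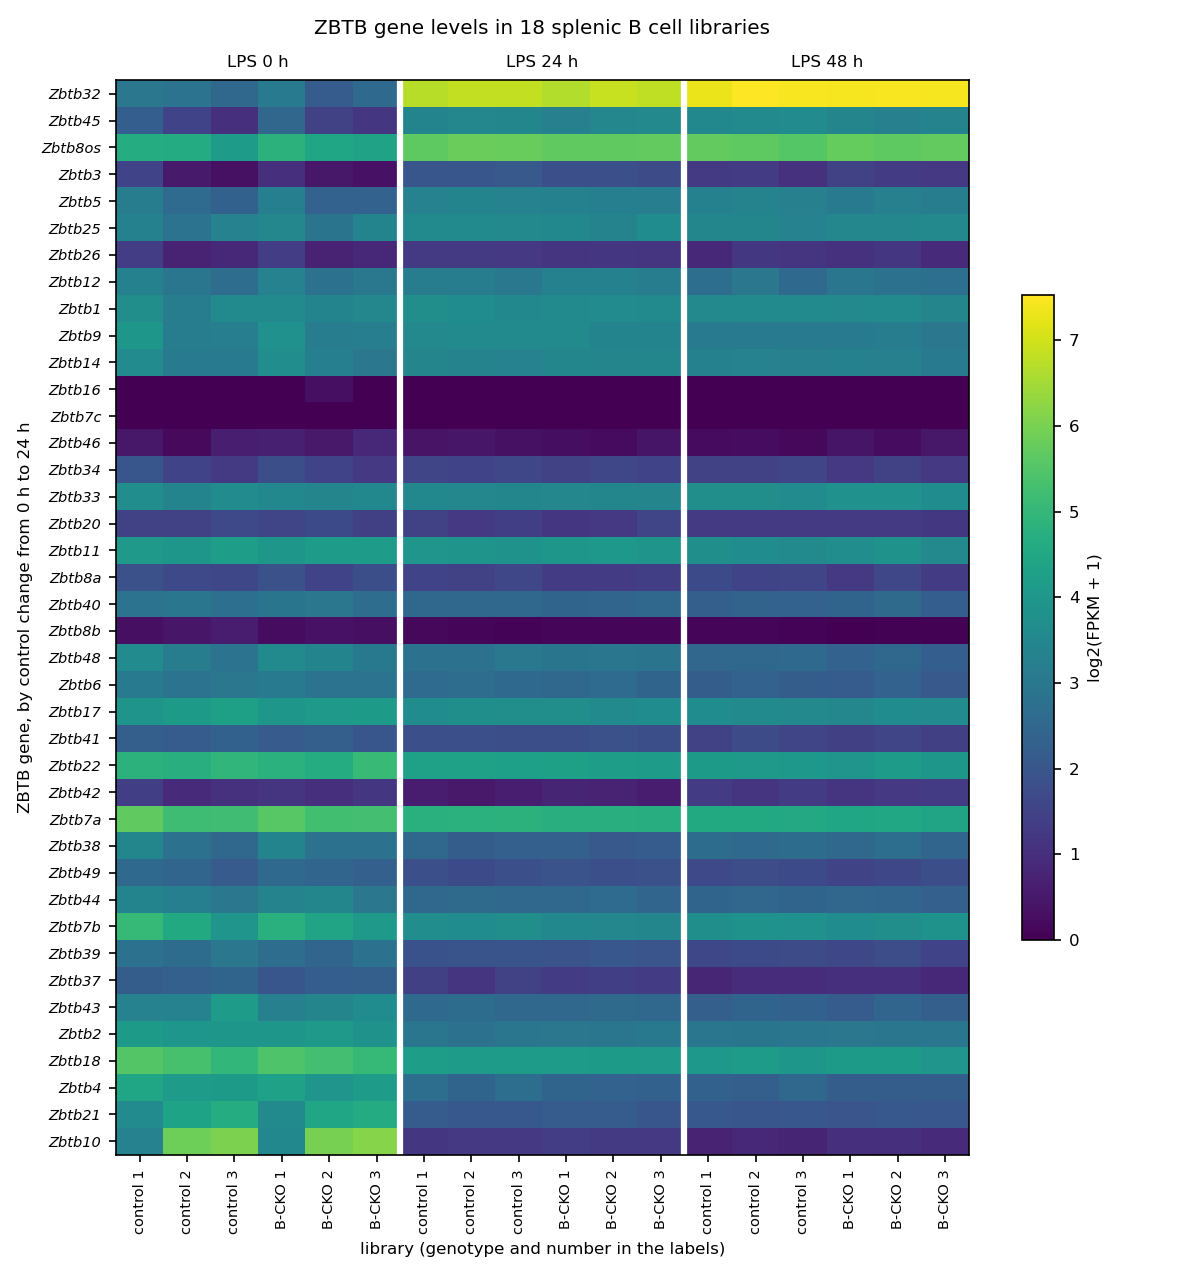
Level of each of the 40 genes (rows, ordered by the control change from 0 h to 24 h) in each of the 18 libraries (columns, by time, genotype and number), as colour on a log2(FPKM + 1) scale. *Zbtb32* at the top turns from rank 25 to the brightest row, and *Zbtb10* at the bottom is bright only in the 0 h libraries, more so in numbers 2 and 3 than in number 1.

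The first comparison set control cells after 24 h of LPS in culture against control cells at 0 h. With limma on log2(FPKM + 1) and Benjamini-Hochberg adjustment over all 15531 genes tested, 25 of 40 members passed an adjusted p of 0.05, against 57.4% of all genes. Of these, 6 were higher and 19 lower, against 26.7% higher and 30.7% lower among all genes. The median log2 fold change was -0.33 over the 40 members and -0.02 over all genes tested. No library at 24 h overlapped with one at 0 h for 27 of the 40 members, against 63.9% of all genes. Among 375 other zinc finger genes with symbols starting with Zfp, 36 were higher and 130 lower (median -0.12), and among 54 *Klhl*, *Kbtbd* and *Btbd* genes, which encode BTB proteins without these zinc fingers, 8 were higher and 19 lower (median -0.06). All fold changes on the log2 scale below are of FPKM + 1, which understates the change of low genes.

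*Zbtb32* rose most. Its product, also called ROG or PLZP, was first known as a repressor of GATA3 in T cells and restrains memory B cell responses. Control libraries 1, 2 and 3 held 6.91, 6.27 and 4.84 FPKM at 0 h, 105, 114 and 114 FPKM at 24 h, and 156, 184 and 173 FPKM at 48 h. B-CKO libraries held 7.60, 3.58 and 4.93 FPKM, then 100.4, 118 and 112 FPKM, then 171, 175 and 170 FPKM. No library of one time overlapped with one of another time in either genotype. The control mean was 18.5-fold higher at 24 h than at 0 h (log2 fold change 4.01, SE 0.12, limma adjusted p = 5.88e-06), and 1.54-fold higher again at 48 h than at 24 h (0.61, SE 0.07, adjusted p = 0.000439).

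*Zbtb45*, a little-studied member, was next by log2 fold change in control cells. Its control libraries were at 3.75, 1.87 and 1.00 FPKM at 0 h, at 9.51, 10.2 and 9.95 FPKM at 24 h and at 10.3, 10.8 and 11.5 FPKM at 48 h. All libraries at 24 h and 48 h lay above all at 0 h, where number 1 was highest. The change to 24 h was 4.48-fold (log2 fold change 1.86, SE 0.30, limma adjusted p = 0.00229) and 6.90-fold without number 1 at 0 h, and the further change to 48 h did not pass the test.

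*Zbtb3* rose and then fell. It was at 1.85, 0.46 and 0.26 FPKM at 0 h, at 3.08, 3.00 and 3.27 FPKM at 24 h and at 1.43, 1.55 and 1.11 FPKM at 48 h in control cells. The 24 h libraries stood above all others, and the 48 h libraries overlapped with number 1 at 0 h. The control mean at 24 h was 3.64-fold that at 0 h, and 8.66-fold without number 1 at 0 h. The rise had a log2 fold change of 1.24 (SE 0.30, limma adjusted p = 0.0122) and was lost without control library 2 at 0 h (adjusted p = 0.0506), while the fall had -0.80 (SE 0.09, adjusted p = 0.000428).

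The remaining 3 members called higher were *Zbtb8os*, *Zbtb5* and *Zbtb25*, again with no overlap between 0 h and 24 h. *Zbtb8os*, the archease gene, went from 24.2, 23.6 and 17.0 FPKM at 0 h to 49.8, 54.5 and 53.9 at 24 h (log2 fold change 1.27, SE 0.14, limma adjusted p = 0.00038) and stayed at 45.9 to 51.8 at 48 h. *Zbtb5*, a repressor of the cell cycle inhibitor gene *Cdkn1a*, went from 8.16, 5.15 and 4.08 FPKM to 9.17, 9.46 and 9.06 (0.63, SE 0.22, adjusted p = 0.0441). *Zbtb25* went from 8.83, 6.26 and 9.10 FPKM to 10.8, 11.2 and 10.6 (0.41, SE 0.14, adjusted p = 0.048). The last 2 calls were close to the threshold. That of *Zbtb5* was lost without control 2 at 0 h (adjusted p = 0.125), control 3 at 0 h (0.0855) or control 1, 2 or 3 at 24 h (0.107, 0.117 and 0.104), and that of *Zbtb25* without control 1, 2 or 3 at 24 h (0.117, 0.135 and 0.108). Neither was called after rescaling to TPM (adjusted p = 0.0837 and 0.181).

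Sequence around the start sites is shown for *Zbtb32* and *Zbtb45*, the members with the highest log2 fold changes to 24 h in control cells on the log2(FPKM + 1) scale. The second place depends on the scale and on number 1 at 0 h, since the ratio of mean FPKM was higher for *Zbtb3* than for *Zbtb45* without that library (8.66-fold against 6.90-fold) and in B-CKO cells (4.15-fold against 3.86-fold). The RefSeq promoter table (GRCm38.p6, 250 bases before to 50 bases after each start) held 48 promoters of 35 of the 40 genes and none used here for *Zbtb10*, *Zbtb16*, *Zbtb40*, *Zbtb48* and *Zbtb7c*. In the sequences printed, capitals mark matches on either strand to CACGTG (the E-box of MYC and related factors), TGACGTCA (the full cAMP response element), CCGGAAGT (a core bound by ETS factors), CCAAT (the NF-Y box), GGGCGG (the GC box) or TATAAA (the TATA box), and no motif lies within another. The windows of *Zbtb32* are chr7:30598860-30599159 and chr7:30592893-30593192 and that of *Zbtb45* is chr7:13009803-13010102, all on the minus strand.
Zbtb32 promoter 1: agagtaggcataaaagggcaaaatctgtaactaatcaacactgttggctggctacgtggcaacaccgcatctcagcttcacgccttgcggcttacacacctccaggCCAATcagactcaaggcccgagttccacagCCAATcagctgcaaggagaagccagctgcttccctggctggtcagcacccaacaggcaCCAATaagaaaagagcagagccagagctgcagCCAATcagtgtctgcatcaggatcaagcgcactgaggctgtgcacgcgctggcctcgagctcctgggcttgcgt
Zbtb32 promoter 2: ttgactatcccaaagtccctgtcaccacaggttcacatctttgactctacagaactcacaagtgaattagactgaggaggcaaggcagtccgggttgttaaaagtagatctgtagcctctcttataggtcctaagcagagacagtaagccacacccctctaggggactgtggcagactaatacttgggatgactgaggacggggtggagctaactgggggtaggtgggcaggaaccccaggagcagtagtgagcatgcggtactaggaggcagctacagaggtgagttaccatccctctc
Zbtb45 promoter: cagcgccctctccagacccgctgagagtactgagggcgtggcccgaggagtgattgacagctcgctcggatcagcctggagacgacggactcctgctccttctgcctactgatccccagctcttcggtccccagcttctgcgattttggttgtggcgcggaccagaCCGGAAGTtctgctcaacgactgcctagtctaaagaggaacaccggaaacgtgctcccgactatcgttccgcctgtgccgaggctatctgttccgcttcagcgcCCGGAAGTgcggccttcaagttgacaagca

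The upstream *Zbtb32* window held 4 matches to CCAAT, and its downstream window held none of the 6 motifs. The *Zbtb45* window held 2 matches to CCGGAAGT. Of 16526 promoters of genes in the table, 37.5% held CCAAT and 6.44% held CCGGAAGT, and of the 48 promoters of the members 14 and 4 did. Such matches describe the letters and do not show binding.

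*Zbtb10* fell most. Its product is a zinc finger repressor that binds telomeric repeat variants. Control libraries 1, 2 and 3 held 9.16, 56.8 and 65.1 FPKM at 0 h, 1.26, 1.36 and 1.36 FPKM at 24 h and 0.64, 0.83 and 0.73 FPKM at 48 h. B-CKO libraries held 10.5, 62.8 and 69.9 FPKM, then 1.60, 1.44 and 1.40 FPKM, then 1.00, 1.08 and 0.89 FPKM. Every library at 0 h was above every later one, but number 1 at 0 h was far below numbers 2 and 3 in both genotypes.

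The control mean of *Zbtb10* at 24 h was 32.9-fold lower than at 0 h (log2 fold change -3.86, SE 0.70, limma adjusted p = 0.00372). The call held without each library in turn. The size depends on the library of number 1, since the ratio was 45.9-fold without it and 7.27-fold from number 1 alone. In B-CKO cells the corresponding ratios were 32.2-fold, 44.8-fold and 6.55-fold.

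*Zbtb21*, another repressor of the family, was also lower at 24 h, but had no call from 24 h to 48 h. It was at 11.4, 19.7 and 24.1 FPKM at 0 h, at 3.52, 3.25 and 3.24 FPKM at 24 h and at 3.24, 3.05 and 3.09 FPKM at 48 h in control cells. The 0 h libraries were again lowest in number 1 and did not overlap with the later ones (5.51-fold lower at 24 h, log2 fold change -2.10, SE 0.26, limma adjusted p = 0.000614). *Zbtb4*, a reader of methylated CpG, was at 20.9, 16.8 and 16.3 FPKM at 0 h and 5.63, 4.42 and 5.54 FPKM at 24 h (3.47-fold lower, -1.62, SE 0.13, adjusted p = 0.000114). Unlike *Zbtb10* and *Zbtb21*, it was highest in number 1 at 0 h.

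The promoters of *Zbtb21* (chr16:97962573-97962872, minus strand) and *Zbtb4* (chr11:69765662-69765961, plus strand) are shown as those of the strongest falls for which the table holds one, with capitals as above.
Zbtb21 promoter: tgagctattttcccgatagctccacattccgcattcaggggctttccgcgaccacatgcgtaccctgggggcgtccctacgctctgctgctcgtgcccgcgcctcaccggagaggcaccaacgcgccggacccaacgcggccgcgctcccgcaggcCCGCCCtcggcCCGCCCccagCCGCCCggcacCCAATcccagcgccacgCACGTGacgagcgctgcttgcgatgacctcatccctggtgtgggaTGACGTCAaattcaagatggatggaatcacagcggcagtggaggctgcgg
Zbtb4 promoter: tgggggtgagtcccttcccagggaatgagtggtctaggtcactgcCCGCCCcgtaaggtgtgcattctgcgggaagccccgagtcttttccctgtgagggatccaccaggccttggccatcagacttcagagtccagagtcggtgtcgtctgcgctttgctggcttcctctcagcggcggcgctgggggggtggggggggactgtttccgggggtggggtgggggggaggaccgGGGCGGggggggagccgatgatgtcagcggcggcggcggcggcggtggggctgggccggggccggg

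The *Zbtb21* window held 1 match to TGACGTCA, which CREB and ATF factors bind. This element was present in 2.67% of all promoters and in 2 of the 48 promoters of the members, the other being that of *Zbtb11*. The *Zbtb21* window also held 1 E-box, 1 NF-Y box and 3 GC boxes, and the *Zbtb4* window held 2 GC boxes. The GC box was in 55.3% of all promoters and in 32 of the 48.

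Further members fell by 24 h. *Zbtb18* (RP58), a repressor known from the developing cortex, went from 45.1, 39.6 and 30.6 FPKM to 17.2, 17.0 and 16.9 (log2 fold change -1.11, SE 0.14, limma adjusted p = 0.000679). *Zbtb2*, a repressor in the p53 pathway, went from 16.3, 14.6 and 14.8 FPKM to 6.76, 6.14 and 6.74 (-1.10, SE 0.08, adjusted p = 8.1e-05). *Zbtb43* went from 9.09, 9.13 and 16.9 FPKM to 4.95, 5.33 and 4.71 (-1.03, SE 0.24, adjusted p = 0.0098). In each of these genes the lowest library at 0 h stood above the highest at 24 h.

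*Zbtb37* went from 3.70, 3.92 and 4.42 FPKM to 1.71, 1.25 and 1.77 (-0.96, SE 0.12, limma adjusted p = 0.000679), and *Zbtb39* from 6.12, 5.28 and 6.99 FPKM to 2.74, 2.86 and 2.84 (-0.90, SE 0.12, adjusted p = 0.000807). *Zbtb44* went from 9.54, 8.59 and 6.88 FPKM to 4.84, 5.03 and 4.79 (-0.66, SE 0.13, adjusted p = 0.00481). These 3 again did not overlap between times. *Zbtb7b* went from 32.0, 22.7 and 14.1 FPKM to 12, 11.5 and 12.3 (-0.82, SE 0.27, limma adjusted p = 0.0404), also without overlap. Its call was lost without control 1 or 2 at 0 h (adjusted p = 0.061 and 0.113) or control 1, 2 or 3 at 24 h (0.0985, 0.108 and 0.0945). *Zbtb7b* encodes ThPOK, and 8 of 8 T cell markers in the table were also lower at 24 h, with a sum of 1.11 to 1.71 FPKM against 6.55 to 13.5 at 0 h and none at 0 in all libraries. Their part in its change was not tested.

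The other 9 members lower at 24 h had log2 fold changes from -0.61 (*Zbtb49*) to -0.32 (*Zbtb40*). They were *Zbtb49*, *Zbtb7a*, *Zbtb42*, *Zbtb22*, *Zbtb41*, *Zbtb17*, *Zbtb6*, *Zbtb8b* and *Zbtb40*. Of these calls, 3 depended on single libraries. That of *Zbtb17* was lost without control 2 at 0 h or control 1, 2 or 3 at 24 h (limma adjusted p = 0.0628, 0.0811, 0.0619 and 0.0676), that of *Zbtb40* without the same libraries (0.061, 0.0963, 0.0892 and 0.0766), and that of *Zbtb6* without control 1 or 3 at 24 h (0.0645 and 0.0756). *Zbtb17* and *Zbtb40* also lost their calls when libraries were scaled by their median ratio (0.0823 and 0.0583), and *Zbtb6*, *Zbtb25* and *Zbtb40* in a fit blocked by replicate number (0.0596, 0.0787 and 0.0792).

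**Figure D2:**
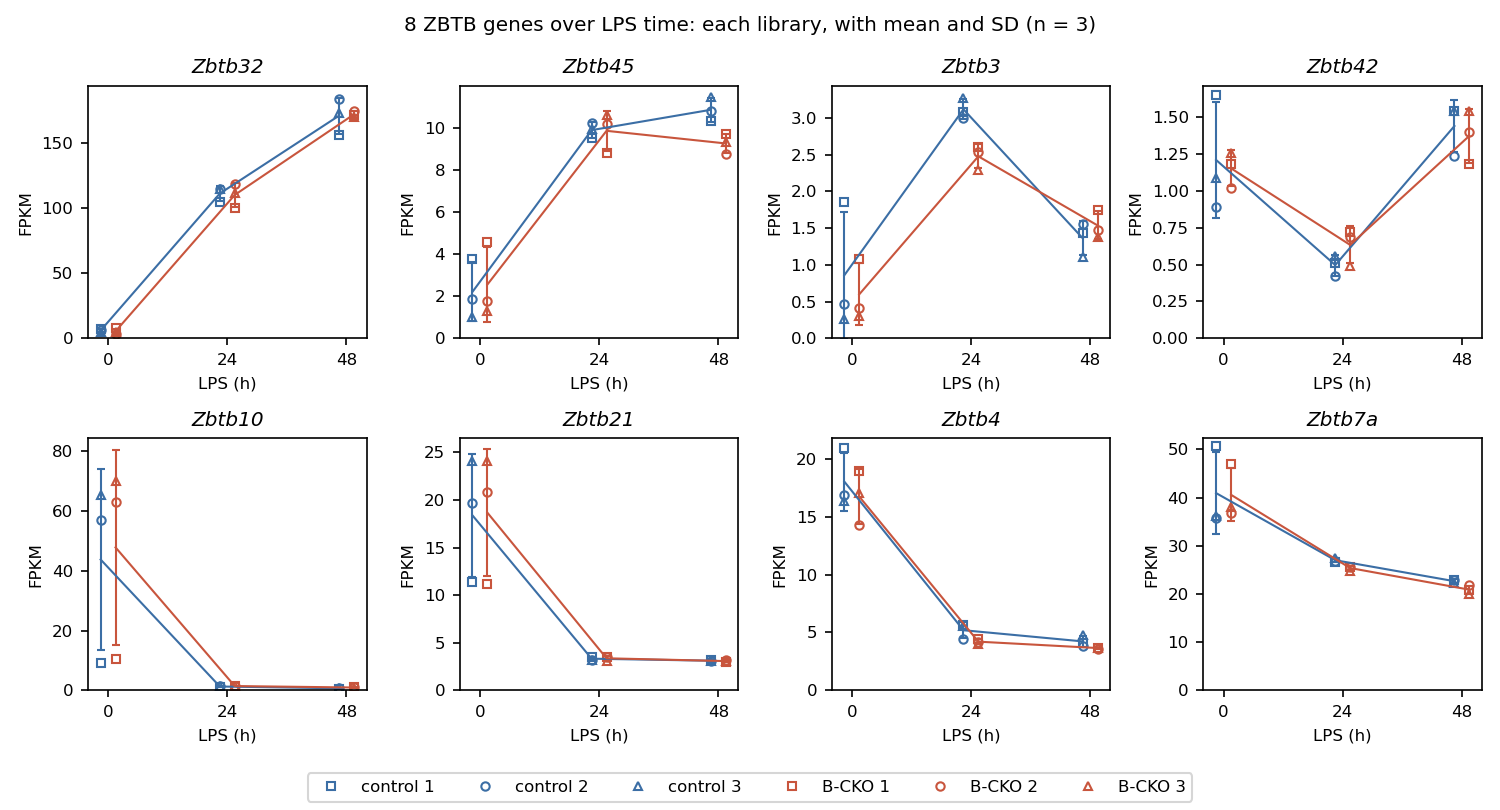
FPKM of 8 ZBTB genes against hours of LPS in control (blue) and B-CKO (red) cells, with a symbol for each library by its number and lines through the means with SD (n = 3), on linear axes starting at 0. *Zbtb32* climbs to control means of 111 and 171 FPKM, *Zbtb10* drops from 43.7 to 1.33 FPKM with number 1 (squares) low at 0 h, and *Zbtb42* dips at 24 h.

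From 24 h to 48 h of LPS, 19 of 39 members tested changed in control cells, against 44.9% of all 15178 genes. Of these, 4 were higher and 15 lower, against 20.1% and 24.8% of all genes. The libraries of 24 h and 48 h did not overlap for 25 of the 39, against 52.5% of all genes. With libraries scaled by their median ratio the split was 6 higher and 13 lower. A single fit of all 18 libraries, whose spread is shared with the more variable 0 h libraries, called 8, with 3 higher and 5 lower. The calls lost there were those of *Zbtb7a*, *Zbtb9*, *Zbtb10*, *Zbtb12*, *Zbtb22*, *Zbtb25*, *Zbtb38*, *Zbtb39*, *Zbtb43*, *Zbtb46* and *Zbtb48* (limma adjusted p from 0.0580 to 0.687).

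*Zbtb42* was the only member that was lower at 24 h and then higher at 48 h in control cells. It is a close relative of *Zbtb18* known from skeletal muscle. Its control libraries were at 1.65, 0.89 and 1.09 FPKM at 0 h, at 0.51, 0.42 and 0.56 at 24 h and at 1.54, 1.24 and 1.54 at 48 h. The 24 h libraries were below all others, while 0 h and 48 h overlapped (48 h versus 24 h, log2 fold change 0.70, SE 0.07, limma adjusted p = 0.000288). The same fall and rise were called in B-CKO cells.

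*Zbtb33* (Kaiso) and *Zbtb38*, which bind methylated CpG, were the other members higher at 48 h. *Zbtb33* was at 10.4, 10.1 and 9.95 FPKM at 24 h and 12.2, 12.1 and 11.5 at 48 h (log2 fold change 0.21, SE 0.04, limma adjusted p = 0.00764). *Zbtb38* was at 4.81, 3.66 and 3.99 FPKM at 24 h and 5.38, 4.99 and 5.36 at 48 h (0.28, SE 0.09, adjusted p = 0.045). Both groups of libraries were separate, but the call of *Zbtb38* was lost without control 2 or 3 at 24 h (adjusted p = 0.128 and 0.126) or control 1, 2 or 3 at 48 h (0.11, 0.0686 and 0.116), and after rescaling to TPM (0.0689). Of the methyl-CpG readers, *Zbtb4* was therefore lower at 24 h and the other two were higher at 48 h than at 24 h.

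On the log2(FPKM + 1) scale the largest falls after *Zbtb3* were in *Zbtb9*, *Zbtb37* and *Zbtb10*. *Zbtb9* went from 10.7, 11.2 and 11 FPKM at 24 h to 7.59, 7.46 and 7.67 at 48 h (log2 fold change -0.48, SE 0.04, limma adjusted p = 0.000245). *Zbtb37* went to 0.76, 0.94 and 0.95 FPKM (-0.45, SE 0.09, adjusted p = 0.0076), and *Zbtb10* fell further to its 0.64 to 0.83 FPKM (-0.43, SE 0.06, adjusted p = 0.00104). None of the 3 genes had libraries of 24 h and 48 h that overlapped. The annotated exons of *Zbtb9* share 84.4% of their bases with those of *Ggnbp1* on the same strand, so that its reads may be split between these genes.

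*Zbtb12* went from 8.08, 8.19 and 7.02 FPKM to 5.56, 6.84 and 4.94 (-0.38, SE 0.11, limma adjusted p = 0.0326), a call lost without control 1 or 2 at 24 h (adjusted p = 0.103 and 0.104) or control 1 or 3 at 48 h (0.09 and 0.089). *Zbtb6* went from 5.16, 5.40 and 4.92 FPKM to 3.62, 4.15 and 3.68 (-0.36, SE 0.07, adjusted p = 0.00606). *Zbtb48* (TZAP), which binds telomere repeats, went from 5.98, 6.16 and 7.04 FPKM to 4.57, 4.88 and 4.94 (-0.35, SE 0.07, adjusted p = 0.00796). The calls of both telomere-linked members, *Zbtb10* and *Zbtb48*, were lost in the single fit of all 18 libraries (limma adjusted p = 0.687 and 0.121).

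*Zbtb7a* (LRF), which directs progenitors to the B lineage and supports germinal centre B cells, was at 50.8, 35.8 and 36.2 FPKM at 0 h, at 26.7, 26.8 and 27.5 at 24 h and at 22.8, 23.0 and 22.2 at 48 h. It fell at both steps without overlap (-0.56, SE 0.14, limma adjusted p = 0.0131, then -0.24, SE 0.03, adjusted p = 0.00105). *Zbtb41* went from 2.55, 2.61 and 2.49 FPKM at 24 h to 1.73, 2.28 and 1.95 at 48 h (-0.25, SE 0.08, adjusted p = 0.0406), and *Zbtb39* from 2.74, 2.86 and 2.84 FPKM to 2.09, 2.25 and 2.32 (-0.24, SE 0.06, adjusted p = 0.0155). The call of *Zbtb39* was lost without control 2 at 24 h (0.0503), and that of *Zbtb41* without control 1, 2 or 3 at 24 h (0.0969, 0.109 and 0.0846) or control 1 or 3 at 48 h (0.0923 and 0.1), in the fit blocked by replicate number (0.0578) and with median-ratio scaling (0.0524). The other 5 lower members were *Zbtb43*, *Zbtb22*, *Zbtb11*, *Zbtb46* and *Zbtb25*, from -0.24 to -0.16. The call of *Zbtb43* was lost without control 1 or 2 at 24 h (0.0742 and 0.0994) or control 1 or 3 at 48 h (0.0775 and 0.0746), and that of *Zbtb25* without any 1 of the 6 libraries (0.0558 to 0.141), with the block (0.0580) and with median-ratio scaling (0.122).

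Both steps in control cells, which share the 24 h libraries, put 39 members and all 14850 genes tested at both into classes. Of the members, 10 fell by 24 h with no further call (17.0% of all genes), 8 fell at both steps (6.26%) and 5 fell at the second step alone (6.68%). Another 3 rose by 24 h with no further call (9.64% of all genes), 1 (*Zbtb32*) rose at both steps (5.90%), 2 (*Zbtb3* and *Zbtb25*) rose and then fell (12.4%), 1 (*Zbtb42*) fell and then rose (8.48%), and 2 rose at the second step alone (6.13%). A further 7 were called at neither step (27.5% of all genes), namely *Zbtb1*, *Zbtb8a*, *Zbtb14*, *Zbtb16*, *Zbtb20*, *Zbtb26* and *Zbtb34*, and *Zbtb7c* was at 0 at 24 h and 48 h. At 48 h against 0 h, 3 members were higher and 19 lower in control cells, against 26.5% and 30.3% of all genes (56.8% in all), and without control 1 at 0 h 7 were higher and 19 lower.

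By role, the 9 regulators of blood cell and lymphocyte fate (*Zbtb1*, *Zbtb7a*, *Zbtb7b*, *Zbtb16*, *Zbtb17*, *Zbtb18*, *Zbtb20*, *Zbtb32* and *Zbtb46*) had 1 gene higher and 4 lower at 24 h in control cells, against 26.7% and 30.7% of all genes. *Zbtb1*, needed for lymphocyte development, stayed at 10.4 ± 2.05, 11.4 ± 0.930 and 10.9 ± 0.316 FPKM. *Zbtb17* (MIZ1), a partner of MYC, was at 16.1 ± 2.16, 12.1 ± 0.382 and 11.1 ± 0.410 FPKM. *Zbtb20*, known to support plasma cell survival, was at 1.88 ± 0.246, 1.62 ± 0.206 and 1.43 ± 0.0153 FPKM, without a call between 0 h and 48 h (limma adjusted p = 0.0596). *Zbtb46*, a marker of classical dendritic cells, was at 0.367 ± 0.212, 0.320 ± 0.05 and 0.167 ± 0.0351 FPKM (SD, n = 3 each).

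The same changes were measured in B-CKO cells, which share no library with control cells. Same-numbered 0 h libraries of both genotypes nevertheless deviated together (r = 0.85, 0.47 and 0.79 across 9997 genes). Calls against 0 h in B-CKO cells are therefore not an independent repeat of those in control cells. From 0 h to 24 h, 4 members were higher and 23 lower, against 59.8% of all genes called, 27.5% higher and 32.3% lower. Without B-CKO 1 at 0 h the split was 9 higher and 21 lower. Of the 25 members called in control cells and the 27 called in B-CKO cells, 4 were higher and 19 lower in both, which is 23 of each list, and none was called in opposite directions. *Zbtb5* and *Zbtb25* were called in control cells alone, and *Zbtb8a*, *Zbtb38*, *Zbtb46* and *Zbtb48* in B-CKO cells alone. Among the alternatives run, the B-CKO call of *Zbtb48* was lost in 7 of 12, that of *Zbtb8a* in 5 of 12, that of *Zbtb46* in 2 of 11 and that of *Zbtb38* in 0 of 12. From 24 h to 48 h, 18 of 39 members were called in B-CKO cells, against 45.7% of all genes, with 4 higher and 11 lower in both genotypes and none opposite. From 0 h to 48 h, 27 of 40 were called, against 57.6% of all genes. All 22 called in control cells were among them, 3 higher and 19 lower in both. No share of all genes called alike in both genotypes is given here, so these overlaps cannot be read as particular to the members.

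**Figure D3:**
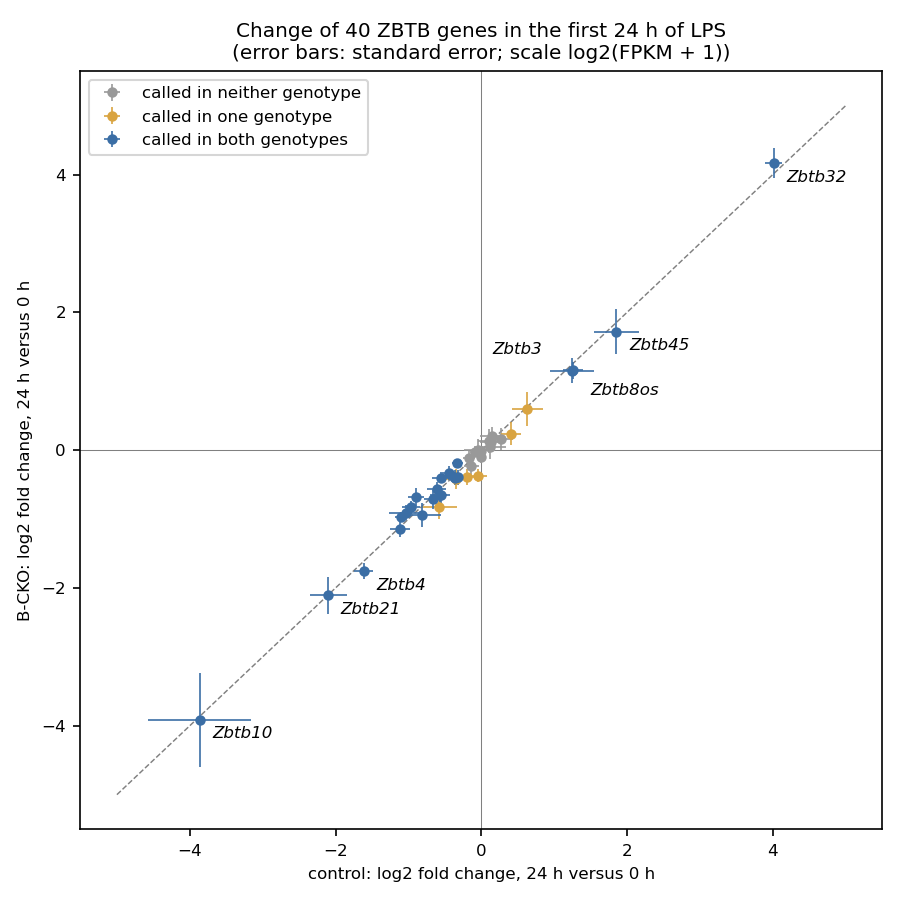
Log2 fold change from 0 h to 24 h of LPS of the 40 genes in control (horizontal) and B-CKO cells (vertical), with standard errors, on the log2(FPKM + 1) scale. The points lie along the dashed line of equal change, from *Zbtb10* (-3.86 and -3.91) to *Zbtb32* (4.01 and 4.17).

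The difference between genotypes in these changes was tested directly as an interaction. No member passed for the change from 0 h to 24 h, where 0% of all genes did, and 0 of 40 members had an unadjusted p under 0.05 against 2.89% of all genes. For the change from 24 h to 48 h, 0 members and 0% of all genes passed, and 2 of 39 members had an unadjusted p under 0.05, against 7.31% of all genes. These 2 were *Zbtb3*, whose fall was smaller in B-CKO cells (difference 0.35, SE 0.12, limma adjusted p = 0.61), and *Zbtb46* (0.26, SE 0.09, adjusted p = 0.61). For *Zbtb32* the 95% interval of the difference was -0.46 to 0.77 for the first step and -0.18 to 0.24 for the second, and for *Zbtb10* that of the first step was -2.47 to 2.37. The fit behind the *Zbtb10* interval had no block by replicate number, although number 1 was low for this gene at 0 h in both genotypes.

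The levels themselves bear on the question whether loss of *Zbtb24* is accompanied by higher expression of a relative. No member differed between genotypes at 0 h, 24 h or 48 h by limma with an adjusted p under 0.05, against 0%, 0.0993% and 0.0460% of all genes. At an unadjusted p under 0.05 the numbers at the 3 times were 0 of 40, 5 of 39 and 4 of 38 members, against 2.00%, 16.3% and 7.71% of all genes. Among members with a mean of at least 1 FPKM, the 95% interval on the log2(FPKM + 1) scale left out differences beyond 1.5-fold for 22 of 35 at 0 h, for 35 of 35 at 24 h and for 34 of 34 at 48 h. For the other 4 or 5 members the added 1 FPKM bounds the interval, which then says little about their fold. For *Zbtb46* at 48 h, for example, the log2 difference was 0.16 as tested and 0.60 with a pseudocount of 0.1. The added 1 FPKM also shrinks the fold of members just above 1 FPKM, so that their intervals do not bound the fold in FPKM. An example is *Zbtb8a* at 48 h (control mean 2.03 FPKM, 95% interval -0.46 to 0.06). At 0 h, where same-numbered libraries deviated together, a fit blocked by replicate number gave 34 of 35 within 1.5-fold and again 0 calls. *Zbtb10* had a 95% interval of -2.21 to 2.49 at 0 h without the block and 0.03 to 0.25 with it (log2 fold change 0.14, limma adjusted p = 0.843), and its B-CKO library was above the control library of the same number in each pair. With the block *Zbtb46* was the other member with an unadjusted p under 0.05 at 0 h (0.24, adjusted p = 0.787), which makes 2 of 40 against 5.70% of all genes.

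The 5 members with an unadjusted p under 0.05 at 24 h in the fit without a block were all lower in B-CKO cells. *Zbtb7b* held 12, 11.5 and 12.3 FPKM in control libraries against 10.3, 10.1 and 9.88 in those of B-CKO mice (log2 fold change -0.22, SE 0.04, limma adjusted p = 0.093), and was called only when genes under a mean of 1 FPKM were left out (0.0307). *Zbtb3* was at 3.08, 3.00 and 3.27 FPKM against 2.60, 2.54 and 2.29 (-0.24, SE 0.06, adjusted p = 0.142). *Zbtb4*, *Zbtb8a* and *Zbtb7a* had log2 fold changes of -0.24, -0.18 and -0.09 (adjusted p = 0.246, 0.2 and 0.205). In all 5 genes the B-CKO libraries lay below the control libraries. Blocked by replicate number, the fit gave 8 of 39 at 24 h against 17.8% of all genes, these 5 with *Zbtb22* and *Zbtb38*, which were lower, and *Zbtb12*, which was higher in B-CKO cells. *Zbtb12* was at 8.08, 8.19 and 7.02 FPKM in control against 8.93, 8.85 and 8.08 in B-CKO libraries (log2 fold change 0.14, 95% interval 0.03 to 0.25 with the block and -0.03 to 0.30 without, limma adjusted p = 0.221 and 0.388), so that the groups overlapped but B-CKO was higher at each number. Such separation of the 3 and 3 libraries was seen in 0 of 40 members at 0 h, in 4 higher and 7 lower members at 24 h and in 2 higher and 4 lower members at 48 h, against 3.87%, 20.1% and 11.1% of all genes in either direction.

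At 48 h *Zbtb45* held 10.3, 10.8 and 11.5 FPKM in control libraries against 9.69, 8.76 and 9.34 in those of B-CKO mice (-0.21, SE 0.06, limma adjusted p = 0.467). *Zbtb7a* was also lower, at 22.8, 23.0 and 22.2 FPKM against 20.8, 21.8 and 20.1 (-0.11, SE 0.05, adjusted p = 0.629). *Zbtb10* was at 0.64, 0.83 and 0.73 FPKM against 1.00, 1.08 and 0.89 (0.20, SE 0.06, adjusted p = 0.471), and *Zbtb46* at 0.17, 0.20 and 0.13 FPKM against 0.34, 0.20 and 0.39 (0.16, SE 0.06, adjusted p = 0.525). The libraries of *Zbtb46* overlapped between genotypes and those of the other 3 did not. With the block the unadjusted p was under 0.05 for these 3 of 38 members, against 9.45% of all genes, and not for *Zbtb46* (0.0574).

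**Figure D4:**
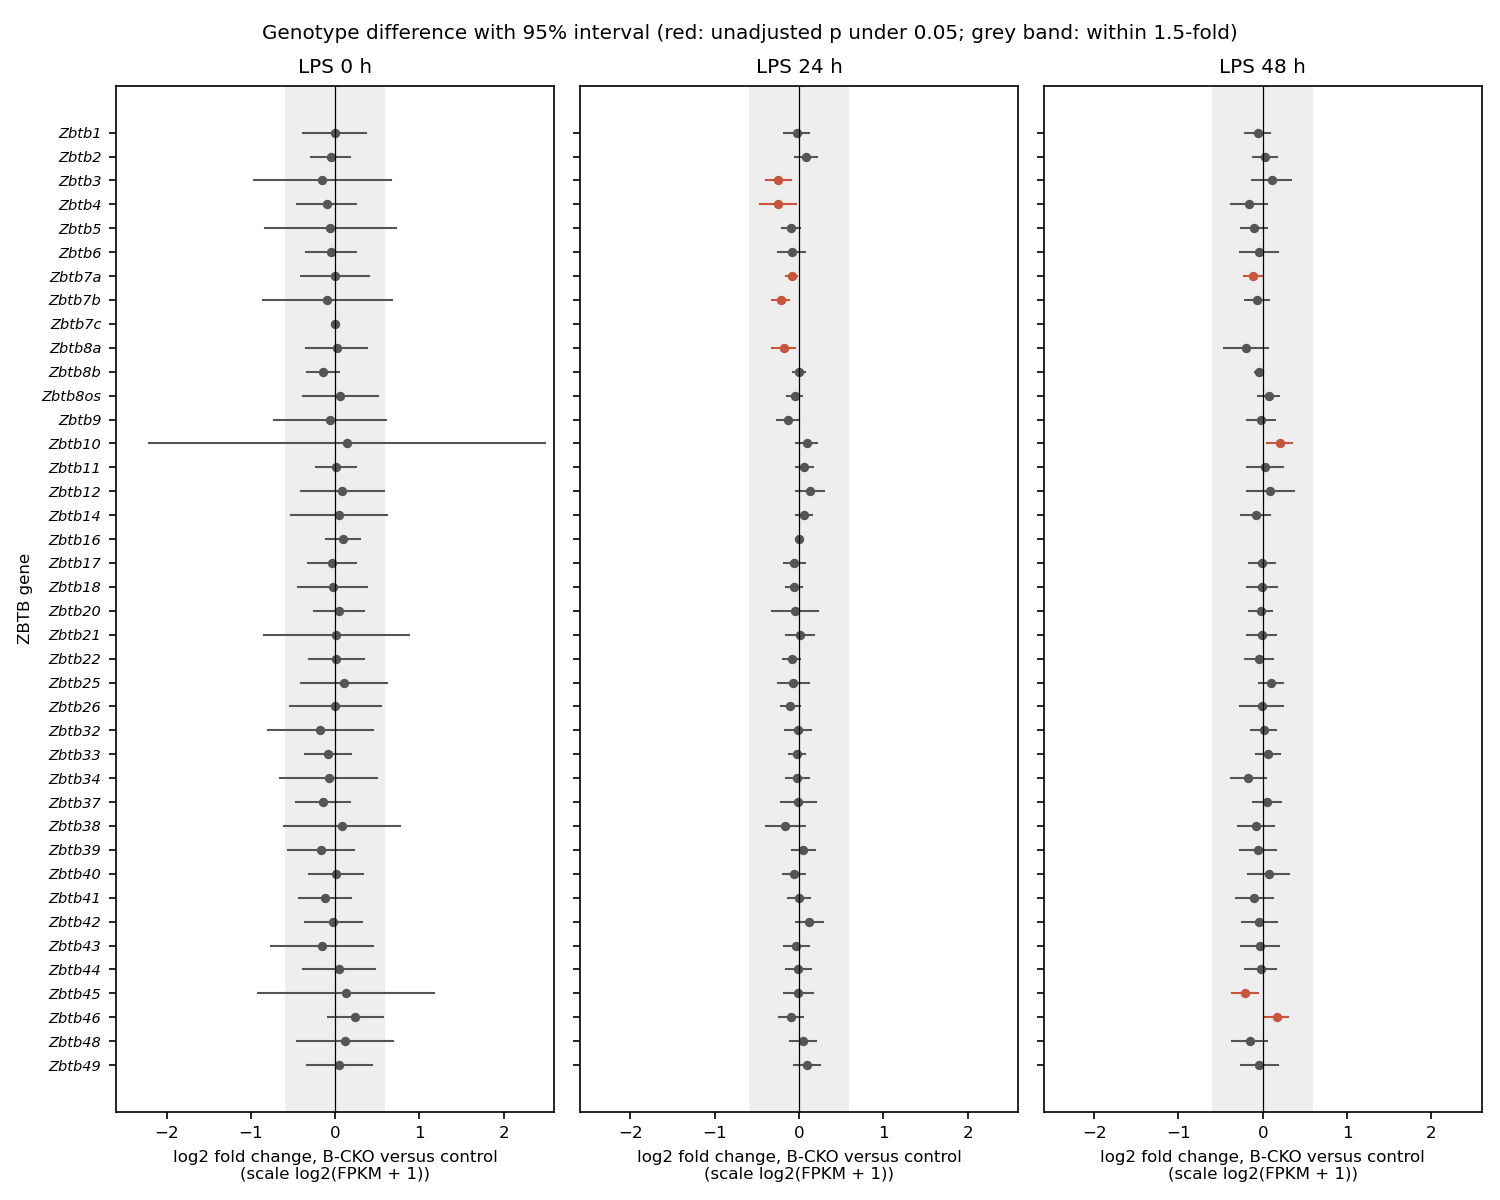
Log2 fold change of B-CKO against control cells for each member at 0 h, 24 h and 48 h of LPS (points) with its 95% interval (bars), on the log2(FPKM + 1) scale, in red where the unadjusted p was under 0.05. The intervals, from the fit without a block, lie inside the grey band of 1.5-fold at 24 h and 48 h and for 26 of 40 members at 0 h, and members below 1 FPKM are held near 0 by this scale.

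The libraries of number 1 stood apart at 0 h in both genotypes. Among 35 members with a mean of at least 1 FPKM, 34 deviated in the same direction in number 1, against the mean of numbers 2 and 3, in control and in B-CKO cells at 0 h. By over 0.5 on the log2 scale in both genotypes deviated 9 of these 35, against 8.04% of all 9979 genes. At 24 h and 48 h, 21 of 35 and 14 of 34 members had the same sign and 0 deviated that far.

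*Zbtb10* and *Zbtb21* were lower in number 1, by 2.60 and 0.88 in control and 2.55 and 0.94 in B-CKO cells. *Zbtb45* was higher by 0.99 and 1.15, *Zbtb5* by 0.71 and 0.87, *Zbtb38* by 0.79 and 0.56, *Zbtb9* by 0.76 and 0.61 and *Zbtb7b* by 0.81 and 0.55, as were *Zbtb14* and *Zbtb26*, and *Zbtb3* below 1 FPKM. Without these 2 libraries, a choice made after seeing the data, 0 of 40 members were called between genotypes at 0 h, against 0 of 15299 genes. For the difference in the change to 24 h, 0 of 40 were called, against 1 of 15994 genes.

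At 0 h the immediate early genes, which are switched on within minutes of a stimulus, were high. The sum over 12 of them was 3528 to 5226 FPKM in control libraries at 0 h and 225 to 238 at 24 h, and 12 of 12 were lower at 24 h. Some of them shared the pattern of *Zbtb10* and *Zbtb21* over libraries, as *Nr4a1* with 604, 1203 and 944 FPKM and *Atf3* with 26.0, 127 and 113 FPKM in control numbers 1, 2 and 3, whereas *Egr1* was highest in number 1 with 412, 154 and 69.4 FPKM. This list was made after values were seen, and its part in the 0 h levels of *Zbtb10* and *Zbtb21* was not tested.

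**Figure D5:**
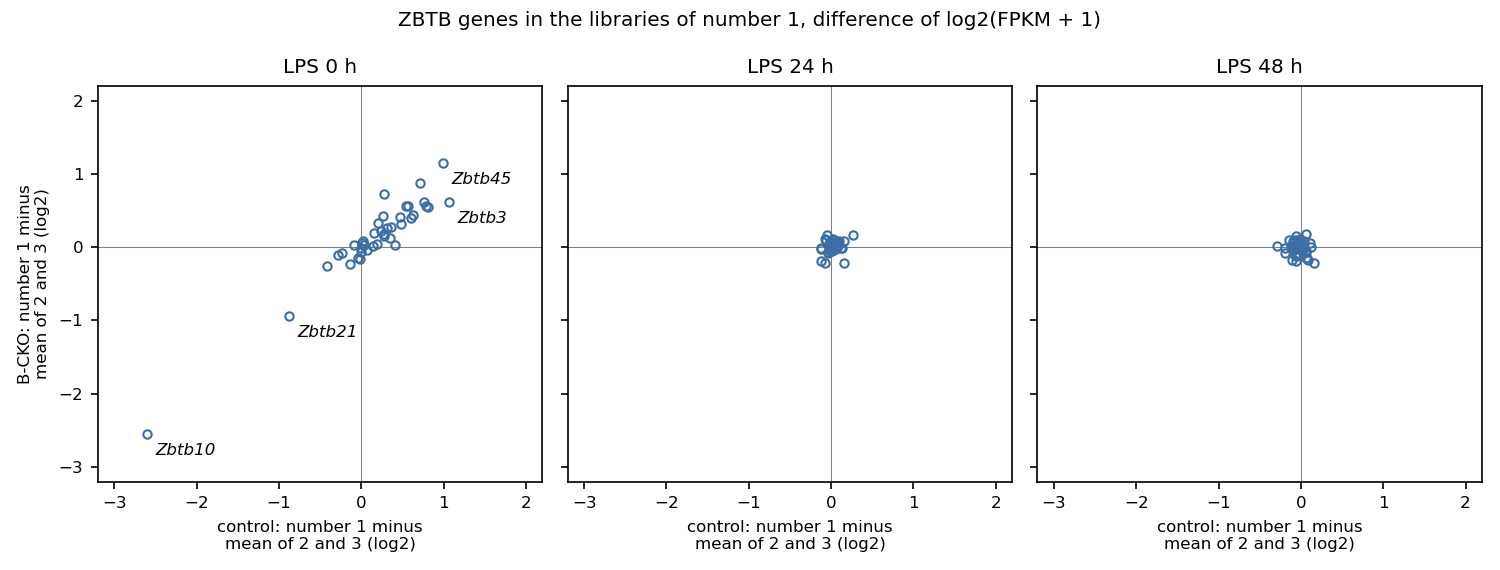
Difference of log2(FPKM + 1) between the library of number 1 and the mean of numbers 2 and 3, in control (horizontal) and B-CKO cells (vertical), for each ZBTB gene (circles) at 0 h, 24 h and 48 h of LPS. At 0 h the genes spread along the diagonal from *Zbtb10* (-2.60 and -2.55) to *Zbtb45* (0.99 and 1.15), and at 24 h and 48 h they gather around 0.

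Another 8 genes of the family carry other symbols. In control cells 1 was higher and 4 lower at 24 h, against 26.7% and 30.7% of all genes. *Bcl6*, the master regulator of germinal centre B cells, was at 39.0 ± 14.8, 14.2 ± 0.902 and 7.92 ± 0.269 FPKM at 0 h, 24 h and 48 h (24 h versus 0 h, log2 fold change -1.32, SE 0.30, limma adjusted p = 0.0092, 48 h versus 24 h, -0.77, SE 0.06, adjusted p = 0.000116). *Mynn*, *Hic1* and *Patz1* fell by 24 h as well (-0.86, -1.20 and -0.34), and *Bcl6b* was higher (0.17). From 24 h to 48 h *Gzf1*, *Hic1* and *Bcl6b* were higher and *Bcl6* lower.

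Of 20 corepressors and partners of BTB proteins, 6 were higher and 8 lower at 24 h in control cells, against 26.7% and 30.7% of all genes. *Hdac1*, *Hdac2* and *Hdac3*, which encode class I histone deacetylases, were higher (log2 fold change 0.84, 1.55 and 0.71), together with *Tbl1x*, *Nacc1* and *Ctbp2*. *Ctbp2* was near the resolution of 2 decimals, with control means of 0.06 FPKM at 0 h and 0.21 at 24 h. The class II deacetylase genes *Hdac5* and *Hdac7* were lower (-1.37 and -1.43), and *Mta3*, *Gps2* and *Sin3a* were among the others that were lower (-1.01, -0.61 and -0.28). *Hdac7* went from 62.2 to 22.5 and back to 60.3 FPKM at 48 h. From 24 h to 48 h, 4 were higher and 12 lower, against 20.1% and 24.8% of all genes.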

How the data were processed

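Expression values of purified splenic B cells were analysed as the authors deposited them, in FPKM, with 2 decimals and NCBI gene IDs for 16545 genes. By the methods and the submitters' processing notes, the authors mapped reads to mm10 with bowtie2 and quantified them with Cufflinks and RSEM, and the notes also name BWA and DESeq2. Strandedness and versions are not given in the sources used here. Of the IDs, 16512 were matched to symbols in NCBI RefSeq (GRCm38.p6). The table holds no counts, so depth is unknown except for relative values, read from steps between low values of 53 genes, and intervals rest on replicates only.

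Values were tested as log2(FPKM + 1) with limma 3.58.1 (R 4.3.3; lmFit, eBayes with trend), over genes above 0 in any library of the fit. Only the libraries compared entered a fit (12 for an interaction). Two-sided p-values were corrected over all genes (Benjamini-Hochberg) with a threshold of 0.05. The fits and the depth estimate were tested on simulated data. A change or difference is called where it passes this threshold.

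The members, gene lists and tests were chosen with earlier results of these data known. Named are up to 10 called members of each direction in the control changes from 0 h to 24 h and from 24 h to 48 h, members with an unadjusted p under 0.05 between genotypes, members of role groups, and members under 1 FPKM in every group. Alternatives were a pseudocount of 0.1, a minimum mean of 1 FPKM, values rescaled to TPM, median-ratio scaling, the replicate number as a block, a single fit of 18 libraries, and leaving out each library. Leaving out both 0 h libraries of number 1 was added after seeing the data.

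Deviations from group means of same-numbered control and B-CKO libraries correlated across 9997 genes at 0 h (r = 0.85, 0.47 and 0.79), so that numbers pair the libraries there, although the sources used here do not say whether a number marks a shared litter or day across genotypes. They did so less at 24 h (0.10, 0.20 and 0.091) and 48 h (-0.037, 0.22 and 0.23), and between times of 1 genotype r was at most 0.19. Figures were drawn in Python 3.11.15 with matplotlib 3.10.9.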

Additional observations from a re-analysis of the deposited data

How the results depend on the processing

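Under the alternatives run no result changed direction. The numbers of members called kept within 1.5 times of the main count except under a single fit of all 18 libraries, which called 8 members from 24 h to 48 h in control cells (main 19) and 10 in B-CKO cells (main 18). With only genes of at least 1 FPKM, 1 member (*Zbtb7b*, lower) was called between genotypes at 24 h (main 0). Why these counts differ was not tested.

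In fits blocked by replicate number (the replicate block), 23, 17 and 22 members were called in control cells (24 h versus 0 h, 48 h versus 24 h, 48 h versus 0 h) and 24, 16 and 26 in B-CKO cells, and 0 in each comparison of genotypes. Of 149 calls and values of named members, 19 lost significance in the single fit of all 18 libraries, 11 under the block, 9 under median-ratio scaling, 5 after rescaling to TPM and 2 with a pseudocount of 0.1, as did 116 values with 1 library left out, where 790 did not.

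Leaving out 1 library at a time gave 19 to 27, 14 to 18 and 21 to 26 called members in control cells and 22 to 30, 12 to 21 and 20 to 25 in B-CKO cells, in the same order, and 0 in each comparison of genotypes. Where a group is left with 2 libraries, fewer samples enter the test.

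FPKM are relative to all transcripts of a library, and no count is available to limit low genes, so that *Zbtb7c*, *Zbtb16*, *Zbtb46* and *Zbtb8b* are near the resolution of 2 decimals. Strandedness is not given, and exons of *Zbtb37*, *Zbtb5*, *Zbtb14* and *Zbtb8a* overlap genes on the other strand over 15.6%, 13.0%, 12.1% and 11.4% of their bases.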

Other observations

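Some members are neighbours in the genome. The annotation places 5 pairs of the 40 genes next to each other within 100 kb on GRCm38, which are *Zbtb25* and *Zbtb1* on chromosome 12, *Zbtb34* and *Zbtb43* and *Zbtb6* and *Zbtb26* on chromosome 2, and *Zbtb8os* and *Zbtb8a* and *Zbtb8a* and *Zbtb8b* on chromosome 4. *Zbtb25* (chr12:76348900-76370214, minus strand) and *Zbtb1* (chr12:76370051-76396955, plus strand) are head to head and overlap by 164 bases as annotated. From 0 h to 24 h in control cells, 0 of the 5 pairs were called in the same direction. *Zbtb25*, *Zbtb43*, *Zbtb6*, *Zbtb8os* and *Zbtb8b* were called and *Zbtb1*, *Zbtb34*, *Zbtb26* and *Zbtb8a* were not, and *Zbtb8os* was higher while *Zbtb8b* was lower. In B-CKO cells 1 pair, *Zbtb8a* and *Zbtb8b*, was called lower together. Whether partners of a pair differ in their change was not tested.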
